A study of Homo sapiens with 2 samples.

Results

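The members, 10 genes of the S100 family, were followed in HL-60 cells: the 3 calgranulin genes S100A8, S100A9 and S100A12, the 5 broadly expressed genes S100A4, S100A6, S100A10, S100A11 and S100A13, and the tissue-restricted genes S100P and S100B. They were chosen by name, as genes with a probe set of their own in the annotation, with earlier results of these data known. All 10 were found among the 18404 genes measured. HL-60 is a line of human promyelocytic leukaemia cells, which stop at a precursor stage of granulocytes. The samples were 2 Affymetrix Human Gene 1.0 ST arrays of untreated wild-type cells, replicates 1 and 2, grown in DMEM with 10% fetal bovine serum at 37 °C under 5% CO2. They make up 1 group of 1 cell line, so no condition can be compared and no test across groups exists. Nothing in the labels tells if the replicates are separate cultures, and the spread between them may be technical.

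S100 proteins are small, mostly dimeric proteins that bind calcium through a pair of EF hands and then expose a surface for partner proteins. S100A8 and S100A9 form calprotectin, a major cytosolic protein of mature neutrophils and monocytes, and their genes are known to be switched on as myeloid precursors mature. Outside cells the calgranulins act as danger signals through the Toll-like receptor TLR4 and the receptor AGER (RAGE). S100A4, S100A6, S100A10, S100A11 and S100A13 are found in many cell types, where they act on the cytoskeleton, on membranes through annexins, and in protein release.

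The calgranulin genes gave little or no signal above background, while all 5 broadly expressed genes lay above it on both arrays. Of these 5, 3 passed the 99th percentile of the background genes and 2 a stricter threshold. Of all 18404 genes, 55.8% were above background on both arrays, 7360 passed that percentile and 17% the stricter threshold. The lowest broadly expressed gene, S100A13 (3.10), and the highest calgranulin gene, S100A9 (3.01), lay close together. S100A11 (7.08 ± 0.04) and S100A10 (6.08 ± 0.35) were the highest (log2 signal, mean ± SD, n = 2), and S100A8 (1.54 ± 0.29) and S100A12 (1.55 ± 0.05) the lowest. S100P differed most between the arrays, at 3.40 on replicate 1 and 5.76 on replicate 2. A value is the log2 of the RMA signal of a probe set, so a step of 1 doubles the signal. Background was taken from 359 olfactory receptor genes, whose 95th percentile, called the olfactory threshold here, lay at 2.98 for replicate 1 and 2.88 for replicate 2. The stricter, second threshold, 5.41 on replicate 1 and 5.23 on replicate 2, came from 115 genes of beta-defensins, bitter taste receptors and keratin-associated proteins. A signal also depends on how well the probes bind, so the order of different genes is one of signals and not of transcript numbers. The arrays measure bulk RNA, in which fewer expressing cells and less RNA per cell cannot be told apart.

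The promoters of the 2 highest members, the calgranulins and S100P are shown with their CpG dinucleotides, the sites that DNA methyltransferases modify. Each line gives the 250 bases before the start site from RefSeq (GRCh38.p14), 5′ to 3′ on the gene's strand, with CpG in capitals. S100A11 lies at chr1:152037005-152037254 (minus strand) and S100A10 at chr1:151993860-151994109 (minus strand). The calgranulin promoters lie at chr1:153391074-153391323 (minus strand) for S100A8, chr1:153357604-153357853 (plus strand) for S100A9 and chr1:153375622-153375871 (minus strand) for S100A12. S100P, away from the others, lies at chr4:6693628-6693877 (plus strand). S100A8 has 3 listed start sites, and the one shown holds TATAA at the same distance from its start as in S100A9.
S100A11: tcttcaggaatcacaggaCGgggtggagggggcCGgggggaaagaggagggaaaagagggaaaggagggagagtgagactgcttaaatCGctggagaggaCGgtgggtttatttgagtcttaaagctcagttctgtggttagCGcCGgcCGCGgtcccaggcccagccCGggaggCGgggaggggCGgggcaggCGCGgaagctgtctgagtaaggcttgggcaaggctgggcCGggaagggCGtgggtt
S100A10: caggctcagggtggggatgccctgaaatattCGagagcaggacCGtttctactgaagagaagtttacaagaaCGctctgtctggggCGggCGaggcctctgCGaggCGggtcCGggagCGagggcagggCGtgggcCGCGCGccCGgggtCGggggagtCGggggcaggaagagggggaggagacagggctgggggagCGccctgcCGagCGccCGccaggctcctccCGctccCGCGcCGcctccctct
S100A8: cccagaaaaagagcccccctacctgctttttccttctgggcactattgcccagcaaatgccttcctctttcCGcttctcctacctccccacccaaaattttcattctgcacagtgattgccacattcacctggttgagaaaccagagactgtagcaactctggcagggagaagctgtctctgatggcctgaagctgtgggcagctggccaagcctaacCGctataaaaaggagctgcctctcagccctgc
S100A9: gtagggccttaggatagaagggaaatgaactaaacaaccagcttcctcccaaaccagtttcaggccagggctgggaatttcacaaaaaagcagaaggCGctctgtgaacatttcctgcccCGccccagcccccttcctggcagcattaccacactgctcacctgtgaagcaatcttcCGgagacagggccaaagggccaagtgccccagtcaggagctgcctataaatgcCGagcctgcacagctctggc
S100A12: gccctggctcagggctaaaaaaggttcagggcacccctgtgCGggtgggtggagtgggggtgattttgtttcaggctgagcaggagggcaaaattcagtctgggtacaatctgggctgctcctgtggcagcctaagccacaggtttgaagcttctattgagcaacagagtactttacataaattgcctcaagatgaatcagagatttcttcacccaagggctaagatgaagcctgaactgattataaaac
S100P: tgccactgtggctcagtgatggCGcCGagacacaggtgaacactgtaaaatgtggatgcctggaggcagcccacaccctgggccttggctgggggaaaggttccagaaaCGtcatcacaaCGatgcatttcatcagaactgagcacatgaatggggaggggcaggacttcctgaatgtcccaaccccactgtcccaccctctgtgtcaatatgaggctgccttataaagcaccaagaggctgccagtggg
These windows held 15 CpG for S100A11 and 24 for S100A10, but 2 for S100A8, 4 for S100A9, 1 for S100A12 and 4 for S100P.

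Among the broadly expressed genes, S100A11, whose protein acts in membrane repair and growth control, read 7.05 on replicate 1 and 7.11 on replicate 2. S100A10, the partner of annexin A2 that helps carry channels and plasminogen to the cell surface, read 5.83 and 6.33. These 2 genes were the only members above the second threshold on both arrays. Their signals stood at percentiles 95.1 and 86.1 of all genes on replicate 1, and at percentiles 95.5 and 90.5 on replicate 2. S100A6 (calcyclin), which binds the ubiquitin ligase component CACYBP, read 3.95 and 3.84. S100A4, a partner of non-muscle myosin known from motile cells, read 3.51 and 3.44. S100A13, which takes part in the release of FGF1 and interleukin 1 alpha, read 3.10 on both arrays. The last gene lay just inside the olfactory threshold, by 0.11 on replicate 1 and 0.23 on replicate 2. S100A4, S100A6 and S100A13 were therefore above the lower limit only, and S100A4 and S100A13 did not pass its 99th percentile.

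**Figure D1:**
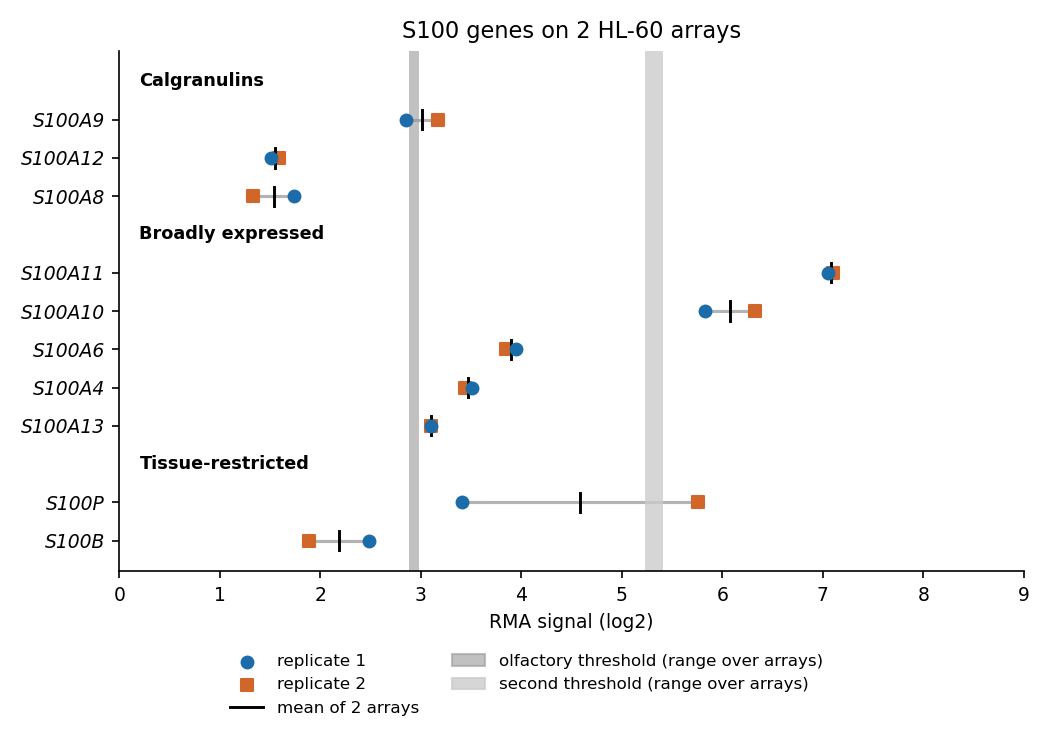
RMA signal (log2, horizontal axis) of the 10 S100 genes on replicate 1 (circles) and replicate 2 (squares), with black ticks for the mean of the 2 arrays and bands for the range of each threshold over the arrays. S100A10 and S100A11 lie to the right of both bands, S100A8 and S100A12 far to the left of them, and S100P spans from 3.40 to 5.76.

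Of the calgranulin genes, S100A9, the larger chain of calprotectin, read 2.85 on replicate 1 and 3.17 on replicate 2. It missed the olfactory threshold on replicate 1 by 0.13 and passed it on replicate 2 by 0.29. S100A8, its partner chain, read 1.74 and 1.33, and S100A12, a ligand of AGER, read 1.51 and 1.58. Both stood more than 1 below the threshold on each array and within the lowest 6.22% of all genes. At these signals an array gives only an upper bound, so low expression cannot be told from none. In all, 0 of 3 calgranulin and 5 of 5 broadly expressed genes passed the olfactory threshold on both arrays, which 55.8% of all genes did. The median signal was 1.55 for the calgranulins and 3.90 for the broadly expressed genes, against 3.33 over all genes. On replicate 1 every broadly expressed gene read higher than every calgranulin gene. On replicate 2 the groups overlapped, since S100A9 (3.17) read above S100A13 (3.10).

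S100P, first known from placenta and found in several epithelia and carcinomas, read 3.40 on replicate 1 and 5.76 on replicate 2. Both arrays put it above the olfactory threshold, and replicate 2 alone above the second. At the 99th percentile of the olfactory genes the call on both arrays was lost, since replicate 1 lay below that limit (3.60). S100B, known from glia, Schwann cells and melanocytes, read 2.48 and 1.88 and was below background on both arrays. Over the 10 members, 6 were above the olfactory threshold on both arrays and 1, S100A9, on 1 array only, as were 7.6% of all genes. The second threshold was passed by 2 of 10 members, against 17% of all genes. The members' median was 3.29, close to the median of 3.33 over all genes.

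The order of mean signals is a description, since the spread between arrays does not hold the differences between probes. The spread of a gene over the arrays was taken as its own SD or, where that was smaller, as the SD of 0.28 per array found over all genes. The signal of S100A11 was 1.00 above that of S100A10, where 2 SDs of the difference between means came to 0.64. The steps from S100A10 down through S100P, S100A6, S100A4, S100A13 and S100A9 were each within 2 SDs. For the steps on either side of S100P that limit was 2.41 and 2.39, since its own SD was 1.66. S100A10 (5.83 and 6.33) and S100A6 (3.95 and 3.84) were not compared directly by this rule. S100B, S100A12 and S100A8 were below background and are not ordered. S100P took place 5 on replicate 1 and place 3 on replicate 2. S100A11 and S100A10 kept the first places on both arrays.

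The other 11 S100 genes measured were all below background on at least 1 array, and 0 of 11 passed on both. S100Z, a little studied member that pairs with S100P, came closest at 2.59 on replicate 1 and 3.19 on replicate 2. S100A14 (2.81 ± 0.19), S100A1 (2.78 ± 0.11), known from heart muscle, and S100A5 (2.65 ± 0.20) followed. The psoriasin genes S100A7A (2.62 ± 0.21), S100A7 (2.43 ± 0.11) and S100A7L2 (1.62 ± 0.41) are products of duplication and may share probes. S100A16 read 2.20 ± 0.13, S100A3, a hair cuticle gene, 2.00 ± 0.72, the vitamin D target S100G 1.88 ± 0.04 and S100A2 1.54 ± 0.10. Signal above background on both arrays in the family came from 6 of 21 genes (28.6%, against 55.8% of all genes). All 6 were among the 10 members, which were chosen with earlier results of these data known, so this split is a description. Genes that join an S100 domain to a long repeat, which serve in the skin barrier and hair follicle, passed in 0 of 6 cases, from CRNN (2.76 ± 0.01) and TCHH (2.54 ± 0.06) down to RPTN (1.85 ± 0.30).

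Between the arrays S100P stood apart from every other member. It was higher on replicate 2 by 2.35, or 5.11-fold, and was the only 1 of 10 members to differ by more than 1, as 1.96% of all genes did. That difference ranked 6 in size among the 18404 genes. Of 2611 genes with a mean signal within 0.5 of that of S100P, 83 (3.18%) differed by more than 1 and 2, S100P included, by as much. With 1 array on each side the difference has no replicate check. S100B was lower on replicate 2 by 0.60 at background signals, and the other 8 members differed by 0.01 to 0.50, inside the central 95% of all genes (-0.78 to 0.79). The members' median difference was 0.03, against -0.04 over all genes. S100A3 differed by -1.02 but was below background on both arrays.

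**Figure D2:**
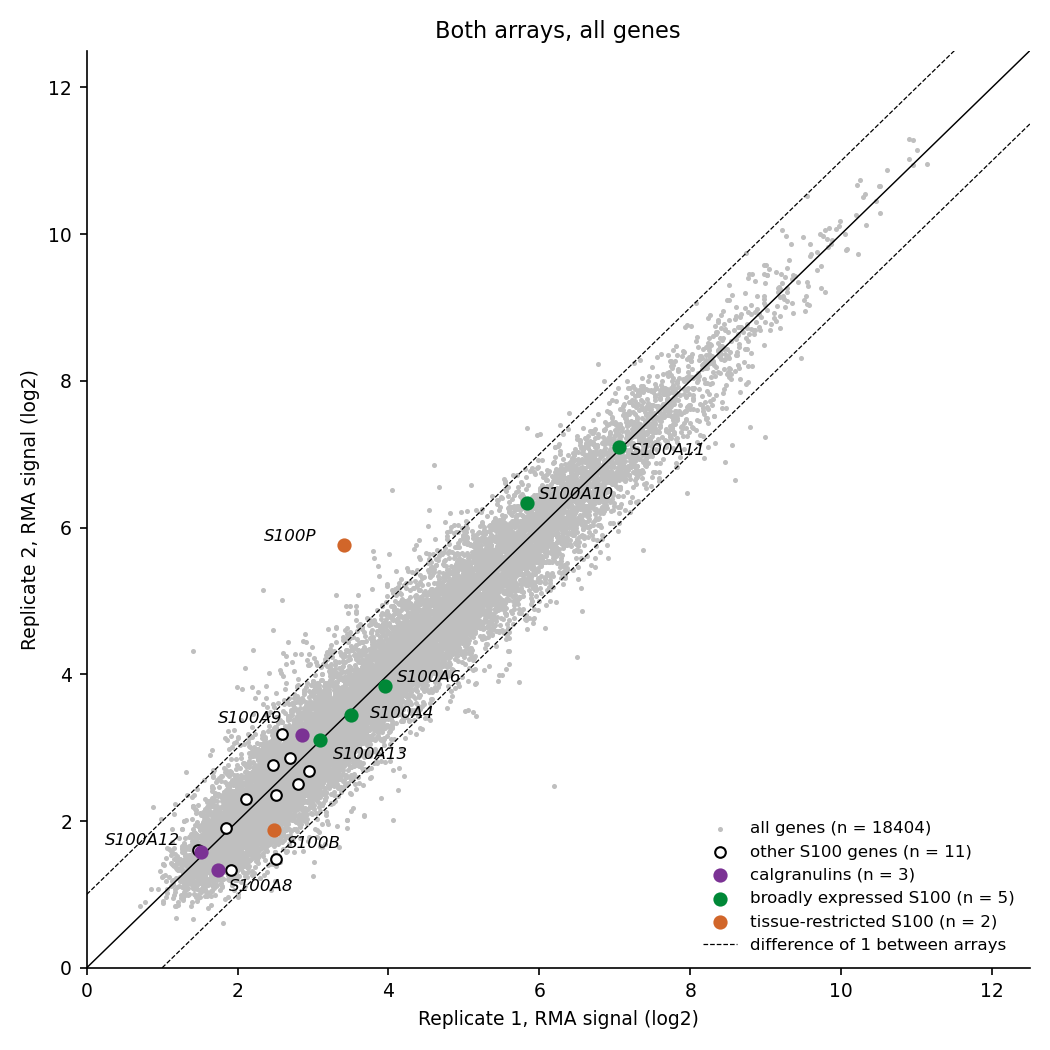
RMA signal (log2) on replicate 1 (horizontal) against replicate 2 (vertical) for 18404 genes in grey, with the S100 genes in colour or as open circles. The solid line marks equal signals and the dashed lines a difference of 1. S100P lies well above the upper dashed line, and the other 9 members lie between the dashed lines.

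Other genes also differed between these arrays, and their part in the S100P difference was not tested. Of 8 promyelocyte markers, 5 were lower on replicate 2, with a median difference of -0.49, and 3 of 8 differed by more than 1. Their median signal was 8.08 on replicate 1 and 6.86 on replicate 2. Of all 18404 genes, 9687 were lower on replicate 2, with a median difference of -0.04, and 1.96% differed by more than 1. LYZ, the lysozyme gene, read 6.50 and 4.24. Of 7 keratinocyte and epithelial markers, 0 passed the olfactory threshold on replicate 2 and 1, KRT19 (3.22 and 2.54), on replicate 1. Of all 18404 genes, 11132 passed it on replicate 2 and 10790 on replicate 1. The epithelial markers ranged from 1.48 to 3.22 on replicate 1 and from 1.42 to 2.75 on replicate 2.

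Annexins bind membranes in the presence of calcium, and several of them form complexes with S100 proteins. Of 11 annexin genes, 6 were above the olfactory threshold on both arrays (54.5%, against 55.8% of all genes), 5 of them above the second as well (45.5%, against 17%). ANXA5 (8.16 ± 0.24), ANXA7 (6.56 ± 0.09), ANXA6 (6.24 ± 0.07), ANXA11 (5.86 ± 0.04), which pairs with S100A6, and ANXA4 (5.77 ± 0.24) were the highest. ANXA1, the partner of S100A11, read 4.81 on replicate 1 and 3.99 on replicate 2. ANXA2, the partner of S100A10, read 2.84 and 2.23 and was below background on both arrays, where S100A10 itself passed both thresholds. ANXA3, known from neutrophils, read 2.66 and 4.44, and was the only annexin to differ by more than 1. ANXA9 (2.93 and 3.52) passed on replicate 2 only, and ANXA10 (1.80 ± 0.42) and ANXA13 (1.69 on both arrays) on neither. The annexins' median difference between arrays was -0.10.

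**Figure D3:**
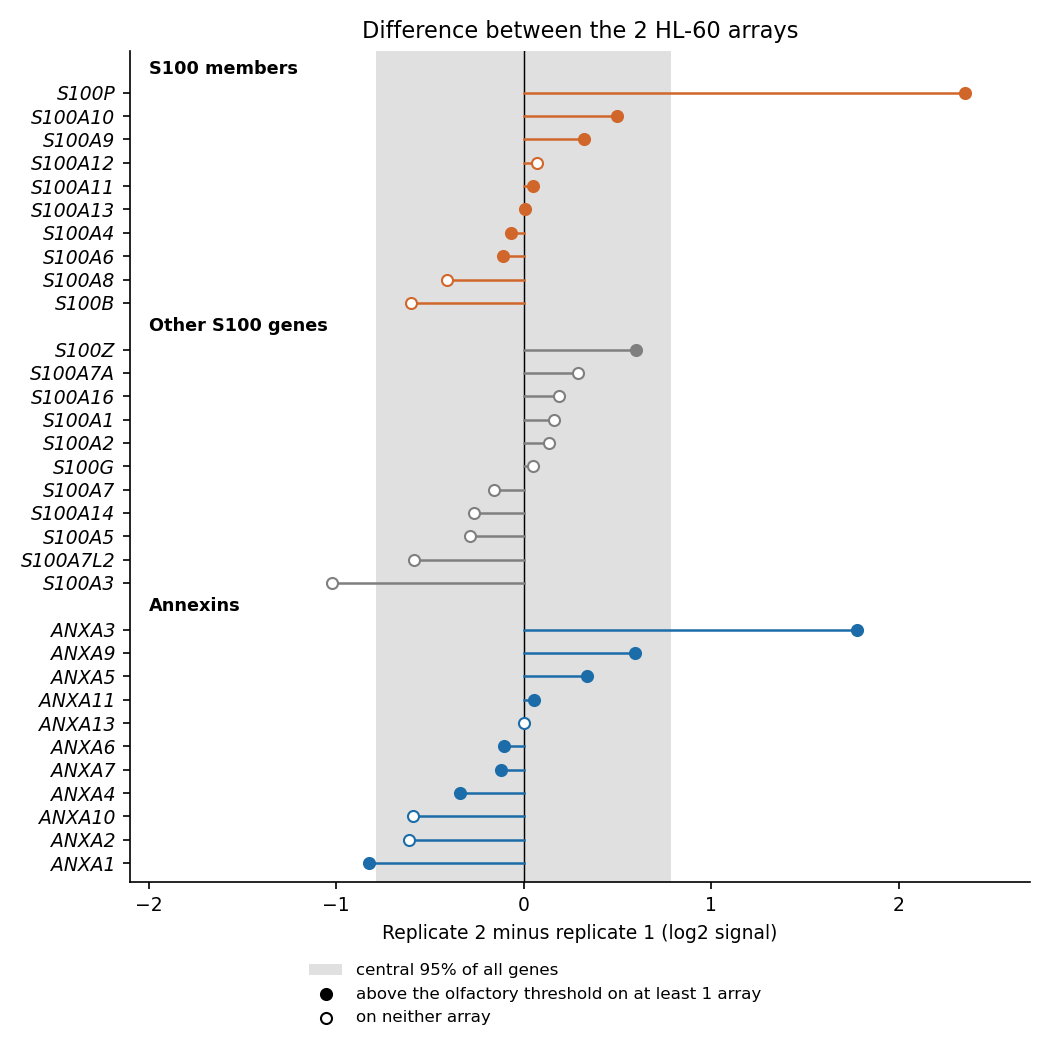
Replicate 2 minus replicate 1 (log2 signal, horizontal axis) for the 10 S100 members, the 11 other S100 genes and 11 annexins, with the central 95% of all genes shaded and open circles for genes below the olfactory threshold on both arrays. S100P (2.35) and ANXA3 (1.78) reach farthest to the right, and S100A3 (-1.02) and ANXA1 (-0.82) lie left of the shaded range.

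Of 16 genes for receptors and signalling proteins that respond to extracellular S100 proteins, 12 passed the olfactory threshold on both arrays and 4 passed the second (75% and 25%, against 55.8% and 17% of all genes). ALCAM, an adhesion molecule that also binds S100B, read 7.73 ± 0.01, DIAPH1, which carries signals from AGER, 6.28 ± 0.04, and the fatty acid and S100 receptor CD36 1.27 ± 0.10. Other members were picked out after their values were seen. TLR4 read 5.00 on replicate 1 and 5.15 on replicate 2, and AGER 3.65 and 3.52. The TLR4 co-receptors LY96 (1.09 and 1.62) and CD14 (2.59 and 2.23) were below background on both arrays.

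Of 14 genes for intracellular partners, 9 were above the olfactory threshold, 4 of them above the second as well (64.3% and 28.6%, against 55.8% and 17% of all genes). NCL (nucleolin), which binds S100A11, read 10.94 ± 0.01, the S100A6 partner CACYBP 7.58 ± 0.11 and the S100A13 cargo FGF1 1.58 ± 0.18. Calprotectin delivers arachidonic acid to the phagocyte NADPH oxidase. Of 5 oxidase genes, 4 passed the olfactory threshold and 2 of them also the second (80% and 40%, against 55.8% and 17% of all genes). The small GTPase gene RAC2 read 6.95 ± 0.33 and NCF4 5.96 ± 0.23, while CYBB, the catalytic subunit, read 2.59 ± 0.18 and did not pass. Of 14 transcription factors known to act on calgranulin or myeloid genes, 12 were above the olfactory threshold, 3 of them above the second as well (85.7% and 21.4%, against 55.8% and 17% of all genes). MYB, which holds precursors in an immature state, read 9.41 ± 0.17, STAT3 5.98 on replicate 1 and 6.03 on replicate 2, and the monocyte factor IRF8 1.62 ± 0.04.

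Markers of the cell types were counted against the same thresholds, which 55.8% (olfactory) and 17% (second) of all genes passed. All 8 promyelocyte markers passed the olfactory threshold, 5 of them also the second, from MYB and SRGN (9.13 ± 0.17) to AZU1 (3.10 ± 0.13). Of 8 mature neutrophil markers 1 passed, CSF3R (4.56 ± 0.36), while ALPL (2.58 ± 0.09) and FPR2 (1.59 ± 0.28) did not. Of 8 monocyte and macrophage markers 2 passed, LYZ, which promyelocytes also express, and CD68 (4.35 ± 0.35), and MSR1 was lowest (1.27 ± 0.10). The median signals on replicates 1 and 2 were 8.08 and 6.86 for promyelocyte markers, 2.01 and 2.13 for neutrophil markers and 2.48 and 2.49 for monocyte markers. Among cell types in which S100B is known, 3 of 6 melanocyte and glial markers passed (50%, near the share of all genes). None of these markers passed the second threshold. Those above the olfactory threshold were MBP (3.79 ± 0.18), SOX10 (3.32 ± 0.12) and, named after its value was seen, GFAP (3.12 ± 0.26), whereas TYR did not pass (1.76 ± 0.16). Of the epithelial markers, KRT19 (2.88 ± 0.48), KRT14 (2.71 ± 0.06) and EPCAM (1.45 ± 0.04) did not pass on both arrays. Of 7 fibroblast markers, COL1A1 (3.69 ± 0.09) and PDGFRB (3.07 ± 0.08) passed and DCN (2.12 ± 0.23) did not.

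The places of the S100A genes on chromosome 1 were set beside their signals. All S100A genes here lie on chromosome 1, and 16 protein-coding S100A genes were placed there in the order of the RefSeq table. S100A10 and S100A11 are neighbours at one end, and the genes of the epidermal differentiation complex lie between them and the other 14. Of the 16 genes 5 passed the olfactory threshold, and both that passed the second are at that end. These 2 were already known to be the highest, so their place is a description and not a test of position. Of 42 other genes measured between the S100A genes, 15 exceeded the olfactory threshold and 2 the second, with a median of 2.63. Of the 18 measured among the 10 genes on each side, 12 exceeded the olfactory threshold and 4 the second, with a median of 4.19. Of all genes, 55.8% exceeded the olfactory threshold and 17% the second, with a median of 3.33. S100A4, S100A6 and S100A13 each lie beside S100A genes that were below background on both arrays.

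**Figure D4:**
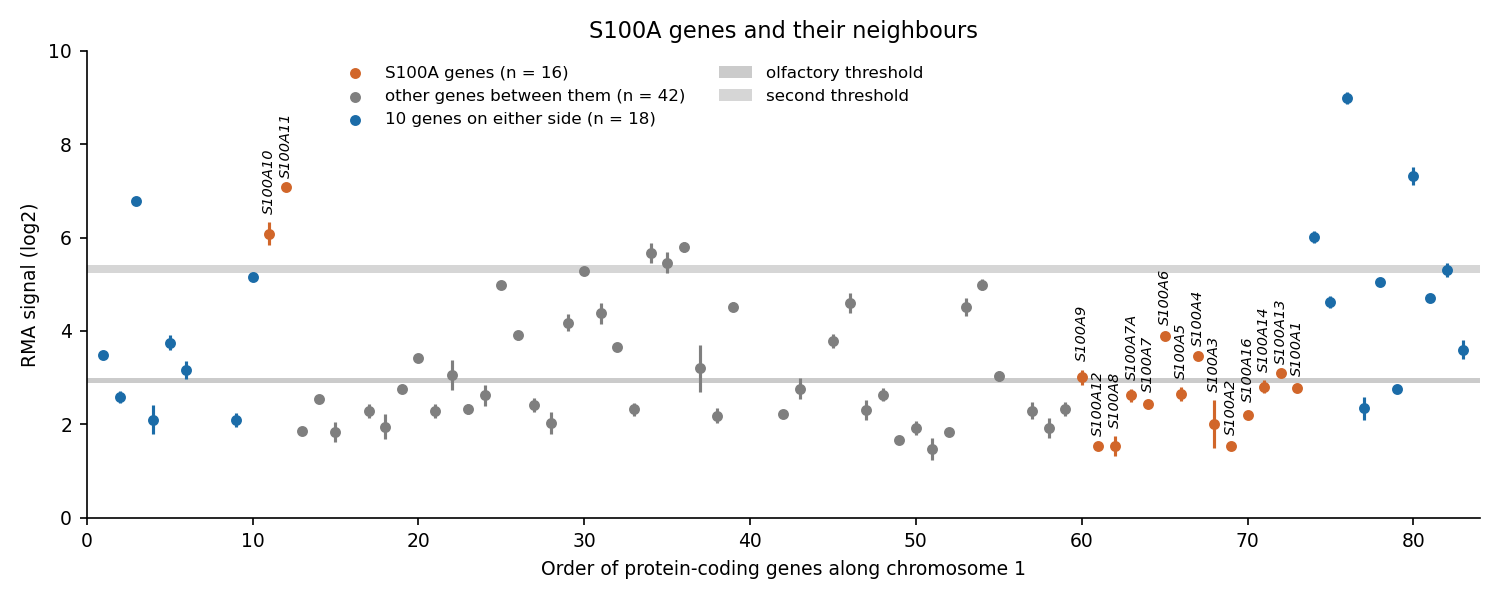
RMA signal (log2, vertical axis) of the genes measured around the S100A genes, in their order along chromosome 1 (horizontal axis), as the mean of the 2 arrays with a line joining the arrays. S100A10 and S100A11 (orange, left) lie above both thresholds, while the other S100A genes (orange, right) lie below the second threshold, the highest being S100A6 (3.90).

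The same stretch limits how far the lower threshold can be read. The late cornified envelope (LCE) genes, which build the skin barrier, passed the olfactory threshold in 10 of 17 cases, and 2 passed the second. The array-wide shares were 55.8% for the lower limit and 17% for the stricter one. The LCE genes were picked out after their values were seen, so their counts are an example and not a test of the threshold. Their median was 3.90, close to that of the broadly expressed S100 genes, and their highest was 5.79. A signal such as that of S100A4, S100A6 or S100A13 was thus also given by some LCE genes. Other skin genes went the other way. Over the whole stretch between the S100A genes, LCE genes included, 15 of 42 passed the olfactory threshold. Of the genes that join an S100 domain to a long repeat, 0 of 6 did.

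The CpG counts of the members ranged widely, also within a class. Over the 300 bases from 250 before to 50 after the start, 9 members had 13 listed promoters. S100A10 held 32 CpG, S100A6 31 and S100A11 22, above the median of 14 over all 35116 promoters. The other broadly expressed genes lay on either side of that median, S100A13 with 19, 11 and 12 at its 3 start sites, or below it, S100A4 with 8. The calgranulin promoters held 5 (S100A9), 1 (S100A12) and 2 at each of the 3 start sites of S100A8, and S100P held 5. At most 5 CpG were found in 6 of 13 member promoters, in 10 of 13 promoters of the other S100 genes, and in 33.7% of all promoters. The 6 include the 3 windows of S100A8, which overlap. Over all genes the first listed promoter held a median of 26 CpG where the gene passed the olfactory threshold on both arrays (8264 genes) and 10 where it passed on neither (4932 genes). S100P, with few CpG and a signal of 5.76 on replicate 2, and S100A4 differ from that pattern. No methylation was measured here.

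**Figure D5:**
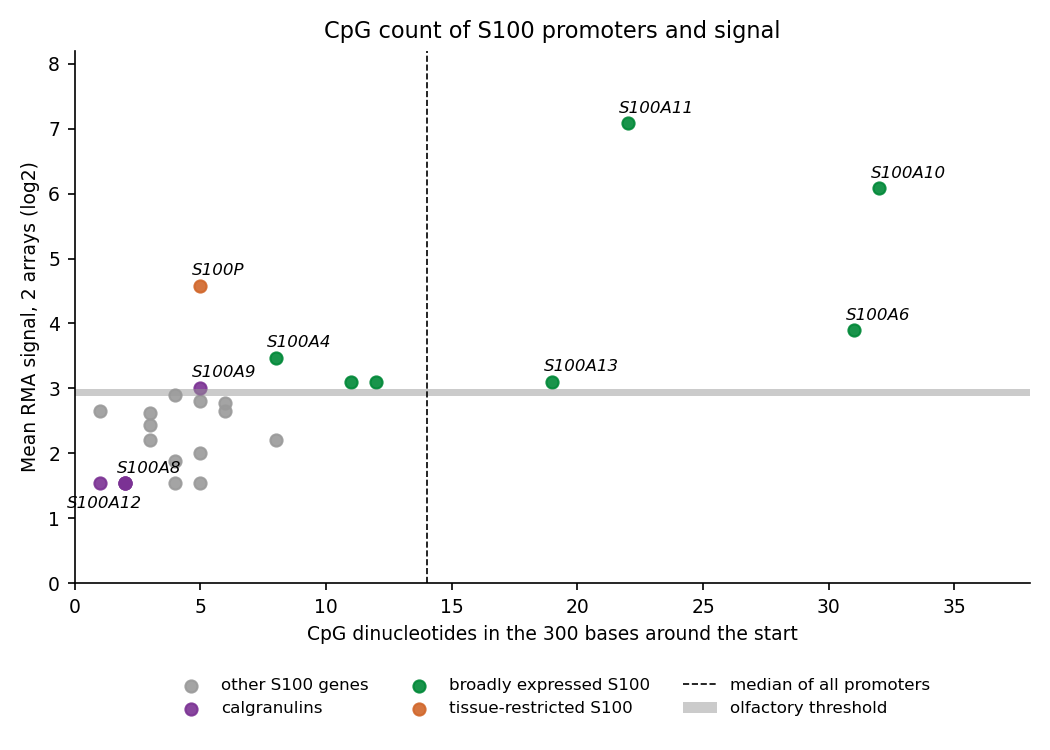
CpG count in the 300 bases around each listed start site (horizontal axis) against the mean RMA signal of the gene on the 2 arrays (log2, vertical axis), by class of S100 gene, with a dashed line at the median of all promoters (14) and a band for the olfactory threshold. A gene with several start sites appears once for each. S100A10, S100A11 and S100A6 lie to the right of the dashed line, S100A13 on both sides of it, and S100A4, S100A8, S100A9, S100A12 and S100P to the left.

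Motifs in the same windows were counted on both strands. The windows of the 3 S100A8 start sites overlap, so the same site can be counted more than once among the 13. TATAA was found in 8 of 13 member promoters and in 20.4% of all promoters. It begins 29 bases before the start in S100A9 and in the S100A8 promoter shown, and within 1 base of there in S100P. It lay within 2 bases of that place also in S100A4, S100A6, 1 of the 3 start sites of S100A13, S100A7, S100A7A and S100A14, so the position is not a mark of the calgranulins. In S100A12 it lay closer to the start. The C/EBP-like motif TTNNGNAA was found in 9 of 13 and in 36.8% of all, and the GC box CCGCCC in 5 of 13 and in 45% of all. The 300-base windows of these S100A8, S100A9 and S100A12 starts each held TTNNGNAA at 2 places, as did those of S100P and S100A11, so this motif did not separate low from high members. In S100A8 and S100A9 the second place lies after the start, outside the bases shown. TTNNGNAA was not found in the S100A10 window. A match is only a run of letters, and binding was not measured.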

How the data were processed

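Total RNA of HL-60 cells was measured on 2 arrays, replicates 1 and 2 of 1 group. Each sample gave 200 ng of RNA for amplification and biotin labelling (NuGEN), per the labels' protocols. The authors deposited RMA values per probe set, per the submitters' processing notes, read here as log2 signals because RMA reports base 2 and the highest value is 12.9. The software version is not given in the sources used here.

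Of 32321 probe sets, 19158 with 1 gene symbol gave 18404 genes, with symbols updated through RefSeq (GRCh38.p14) for 19128 probe sets. Probe sets of a gene were averaged. All 21 S100 genes had 1 probe set each. A gene passed a threshold where it exceeded the 95th percentile of the background genes on both arrays. No p-values were computed. The number of arrays limits the precision. The counting code was checked on simulated data in which the planted genes lay far from the threshold. Calls close to it, such as those of S100A13 and S100A9, were not covered by that check.

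Members and lists were chosen with earlier results of these data known. Named were the members, other S100 genes, annexins, and the 2 highest and the lowest gene of each list. Alternatives were quantile normalization, loess, the highest probe set, a 99th percentile, the second threshold, each array alone, and a filter on dim genes. Protein sequences were not analysed here. Python 3.11.15, numpy 2.4.6, pandas 2.3.3, statsmodels 0.14.6 and matplotlib 3.10.9 were used.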

Additional observations from a re-analysis of the deposited data

How the results depend on the processing

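No paired analysis was possible because there is only 1 group. With the 99th percentile of those olfactory genes, 3 members (S100A6, S100A10 and S100A11), all broadly expressed, passed in place of 6. Of all 18404 genes, 7360 passed at that limit in place of 10262. With the second background set as threshold, 2 members passed, both broadly expressed, and 3137 genes in all. On each array alone, 0 to 1 calgranulin genes passed, the 1 being S100A9 without replicate 1. With genes above background on at least 1 array only, the members' median signal was 3.90 in place of 3.29. That filter left out S100B, S100A12 and S100A8, the members with the lowest signals, so a rise was fixed by it. Quantile normalization, loess and the highest probe set left the member counts at 6, 0 and 5. The S100P difference was 2.36 after quantile normalization and 2.34 after loess, alternatives chosen after seeing the data. Of 15 further lists, the count moved by over 1.5 times for 11 with the second threshold, 4 at the 99th percentile and 1 without each replicate. Without scanner files, background correction and a slide block were not run.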

Other observations

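Other calcium-binding proteins of the EF-hand class passed the olfactory threshold in 17 of 29 cases, and 7 passed the second. These shares, 58.6% and 24.1%, lay near those of all genes (55.8% and 17%), as did the 60% and 20% of the S100 members. LCP1, the leukocyte actin-bundling protein plastin, read 9.87 ± 0.16, the calcineurin-like CHP1 9.14 ± 0.44, and the neuronal sensor VSNL1 1.76 ± 0.13. The gene of grancalcin, GCA, a neutrophil EF-hand protein, read 3.68 on replicate 1 and 4.58 on replicate 2 and was named after its values were seen.

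S100PBP, which encodes a binding partner of S100P and was also named after its values were seen, read 6.27 on replicate 1 and 6.37 on replicate 2. It lay above both thresholds on both arrays and differed by 0.10 between them, where S100P differed by 2.35.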
